A study of Homo sapiens with 4 samples.

Results

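The receptor tyrosine kinases MET, AXL, TYRO3, MERTK, EGFR, ERBB3, IGF1R, INSR, FGFR1 and FGFR2 were followed in GIST-T1 cells after transfection of miR-34a. These 10 genes, of 36337 gene names on the array, were chosen by gene name as receptors other than the KIT and PDGFR kinases. They were represented by 19 probes of 60 bases. GIST-T1 is a human gastrointestinal stromal tumor cell line that carries an activating KIT mutation. One condition received a miR-34a mirVana mimic and the other the mirVana miRNA mimic Negative Control #1, at 100 pmol for 3000000 cells in each case. Both were delivered by nucleofection with kit L, and RNA was taken 48 hours later. Each condition had 2 one-color Agilent arrays, all from this 1 cell line. Nothing in the labels says whether the 2 arrays came from separate cultures, and p-values then measure only the spread between these samples.

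Receptor tyrosine kinases sit in the plasma membrane, dimerize when an extracellular ligand binds, and phosphorylate one another and docking adaptors that feed the RAS-MAPK and PI3K-AKT pathways. In gastrointestinal stromal tumors that signal comes mainly from mutant KIT or PDGFRA, and other receptors of the class have been studied as alternative inputs, in particular when KIT is inhibited. A microRNA pairs through its seed, bases 2 to 8, with matching letters in mRNAs and lowers their stability or translation. MET and AXL are widely used as examples of miR-34a targets, and the comparison asks whether their mRNAs and those of related receptors differed in the presence of the mimic. The arrays measure RNA only, so translation and protein were not analysed here.

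Of the 19 probes, 10 gave a signal well above background on each of the 4 arrays and were tested. They represented 8 of the 10 genes. The other 9 were not tested, and 5 of those were well above background on no array. MET and INSR had no tested probe. Of the 10 tested probes, 0 were lower and 0 higher by more than 1.5-fold in the mimic condition. Of all 21474 probes tested, 4.82% were lower and 2.11% higher by that fold. In limma with Benjamini-Hochberg adjustment 0 of the 10 passed an adjusted p of 0.05, as did 0 probes of the whole array, whose smallest adjusted p was 0.0949. At an unadjusted p under 0.05, 2 tested probes (FGFR1) were lower and 2 (FGFR2) higher, against 11.6% and 12.7% of all tested probes. The methods' t-test gave 3 of the 10 at that unadjusted p, against 19.6% of all tested probes, and 0 after adjustment. When the variance in limma was allowed to follow the signal, 2 probes of the receptors, both FGFR2, passed as higher and 0 as lower, against 3.74% and 3.52% of all tested probes. By sign alone, 5 were lower and 5 higher, against 51.6% lower over all tested probes. The median log2 difference, mimic minus control, was -0.02 over the 10 probes and -0.01 over all probes tested.

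**Figure D1:**
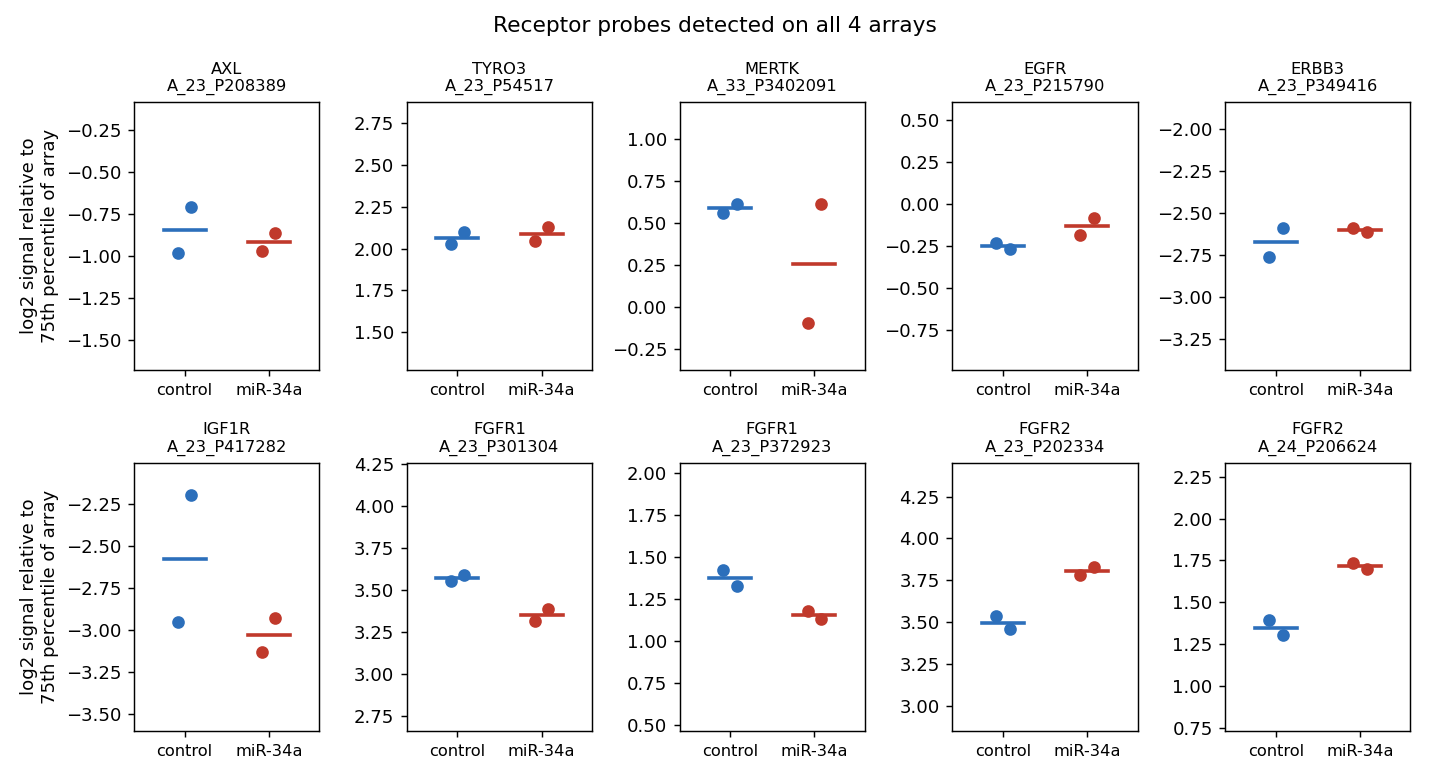
Normalized log2 signal of the 10 tested probes of the receptors, 1 panel per probe, with each array as a point and the mean of each condition as a bar (each panel has its own axis range). The FGFR1 probes lie lower and the FGFR2 probes higher on both mimic arrays than on both control arrays, and MERTK and IGF1R each have 1 array apart from the other 3.

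Across the tested probes, both mimic arrays lay below both control arrays for 2 probes, above them for 3, and overlapped with them for 5. Over the whole array, 30.1% and 30.4% of tested probes lay below and above. Signals of different probes depend on their sequences, so that levels are set only between arrays of the same probe. All log2 values that follow are relative to the 75th percentile of the array. In RNA from a whole culture, fewer cells that express a gene and less of its RNA per cell cannot be told apart.

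MET, the receptor of hepatocyte growth factor, was not measured above background in GIST-T1 cells. Its 1 probe lies in hg19 at chr7:116438290-116438349 on the plus strand. The processed signal was 3.11 and 8.84 on the mimic arrays and 10.2 and 5.08 on the control arrays, and none of these was well above background. No fold is given for it, and a difference in MET mRNA was not detectable at this signal. The MET probe carried letters that pair with the miR-34a seed, which is why its sequence is shown. The mature human miR-34a, miR-449a, miR-449b and miR-34b are printed first, 5′ to 3′ from RefSeq (GRCh38.p14), with bases 2 to 8 in capitals. The line for the MET probe holds its last 24 bases, hg19 chr7:116438326-116438349, with the complement of the seed in capitals.
hsa-miR-34a-5p: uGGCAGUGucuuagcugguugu
hsa-miR-449a: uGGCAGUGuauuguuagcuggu
hsa-miR-449b-5p: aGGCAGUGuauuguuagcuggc
hsa-miR-34b-5p: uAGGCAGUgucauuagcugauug
MET probe: aagaattagatacttgtCACTGCC

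The first 3 miRNAs share bases 2 to 8, GGCAGUG, and miR-34b-5p has AGGCAGU at those positions. The printed miRNAs are not the whole family, and miR-34c, a further member, is not shown. The probes were searched on the mRNA strand for CACTGCC, the complement of bases 2 to 8, and for ACTGCCA, the complement of bases 2 to 7 followed by A. The search letters overlap in 6 bases. Of the 50599 probes, 354 (0.7%) held at least 1 of them. Among the 19 receptor probes the MET probe alone held one, at chr7:116438343-116438349. The search covered the 60 bases of each probe and no other stretch of the mRNAs, and a match is a description of the letters.

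AXL, TYRO3 and MERTK form the TAM family, which binds the ligands GAS6 and protein S. AXL, measured at chr19:41767395-41767454 on the plus strand, was at -0.97 and -0.86 in the mimic condition and -0.98 and -0.71 in the control. The mimic and control arrays overlapped. The log2 difference was -0.07 ± 0.122 (SE), with a 95% interval from -0.43 to 0.28 and a limma adjusted p of 0.736. Of all tested probes, 74.8% showed a larger change. TYRO3 (chr15:41871259-41871318, plus strand) was at 2.04 and 2.13 with the mimic and 2.03 and 2.10 with the control. The conditions overlapped here too, and the difference was 0.02 ± 0.0652 (SE), interval -0.17 to 0.21, limma adjusted p 0.845. The AXL difference turned to 0.067 without control replicate 2. That of TYRO3 turned to -0.019 without mimic replicate 2 and to -0.011 without control replicate 1.

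MERTK, the TAM receptor known for uptake of apoptotic cells, had 1 tested probe (chr2:112786885-112786944, plus strand). Its values were -0.10 and 0.61 with the mimic and 0.56 and 0.61 with the control. One mimic array was thus low and the other level with the controls. The difference of -0.33 ± 0.272 (SE), interval -1.12 to 0.46, had a limma adjusted p of 0.489. It was 0.026 without mimic replicate 1 and -0.69 without mimic replicate 2, so that its size and sign rest on 1 array. A second MERTK probe was well above background on control replicate 1 alone, with processed signals of 8.73 and 9.43 on the mimic arrays and 17.3 and 10.6 on the control arrays.

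EGFR and ERBB3 belong to the ERBB family. EGFR binds EGF and its relatives, and ERBB3 binds neuregulins, has weak kinase activity of its own and signals through its partners. EGFR at chr7:55274841-55274900 (plus strand) was at -0.18 and -0.08 with the mimic and at -0.23 and -0.26 with the control. The mimic arrays lay above the control arrays by a narrow gap. The difference was 0.12 ± 0.0657 (SE), interval -0.07 to 0.31, limma adjusted p 0.351, and it turned to -0.0092 with another background correction (normexp). Its other probes match shorter EGFR transcripts. The one for NM_201283 was well above background on mimic replicate 2 alone, with processed signals of 16.3 and 27.7 with the mimic and 16.3 and 10.9 with the control. The one for NM_201282 was so on no array, with signals of up to 16.2.

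ERBB3 (chr12:56496160-56496219, plus strand) was dim, with processed signals of 24.1 and 23.8 on the mimic arrays and 21.7 and 23.7 on the control arrays. Its log2 values of -2.59 and -2.61 overlapped with the control values of -2.76 and -2.59. The difference was 0.07 ± 0.083 (SE), interval -0.17 to 0.32, limma adjusted p 0.601, and it was -0.037 with normexp, 0.27 after quantile normalization and -0.012 without control replicate 1. A probe for the short transcript NM_001005915 was above background on mimic replicate 1 and control replicate 2, with 27.0 and 14.9 in the mimic condition and 14.7 and 23.3 in the control. A further ERBB3 probe was above background on no array.

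IGF1R and INSR are the paired receptors of insulin-like growth factors and insulin. IGF1R overproduction is known in gastrointestinal stromal tumors that lack KIT mutations. IGF1R at chr15:99507366-99507425 (plus strand) was at -3.13 and -2.93 with the mimic and -2.95 and -2.20 with the control. This probe was dim, with processed signals of 16.6 and 19.2 on the mimic arrays and 19.0 and 31.1 on the control arrays. Its mean signal lay at percentile 3.5 of the tested probes, so that its fold is uncertain. Control replicate 2 stood above the other 3 arrays, and the conditions overlapped. The difference of -0.45 ± 0.296 (SE), a 1.37-fold lower signal with an interval from -1.32 to 0.41, had a limma adjusted p of 0.405. It was -0.17 with normexp and -0.27 after quantile normalization. Leaving out 1 array, it was -0.08 without control replicate 2 and -0.83 without control replicate 1. INSR had 1 probe (chr19:7112351-7112410, minus strand), which was well above background on mimic replicate 1 alone, with processed signals of 23.1 and 11.8 with the mimic and 8.37 and 9.77 with the control.

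**Figure D2:**
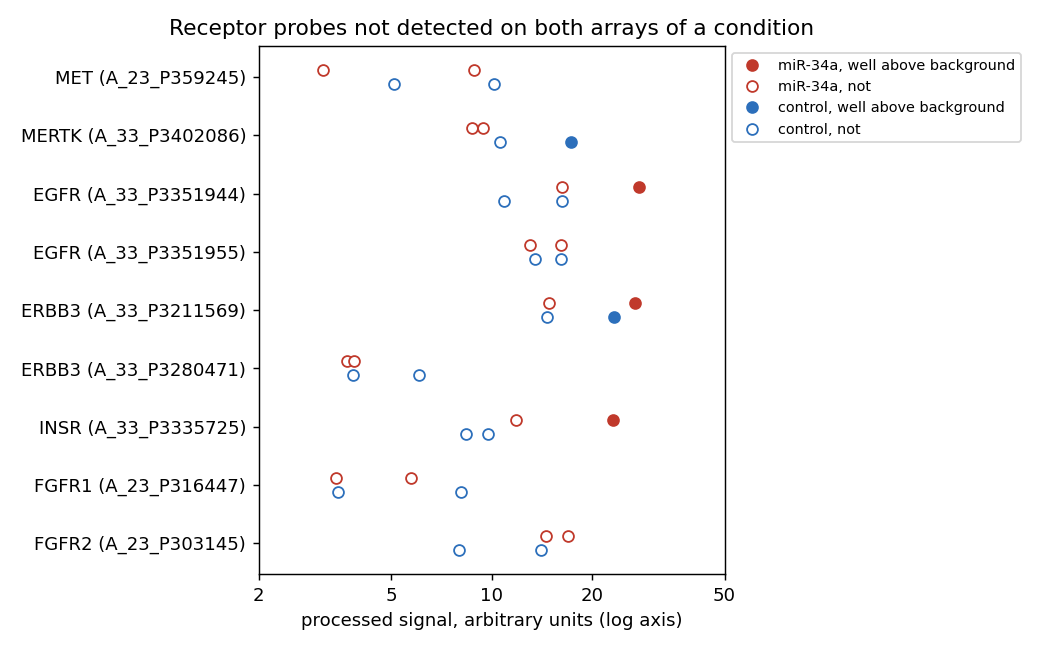
Processed signal, on a log axis, of the 9 receptor probes that were not tested, with 1 point per array and filled points for arrays on which the probe was well above background. MET has no filled point, INSR has 1 (mimic replicate 1), and the highest signal is 27.7.

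FGFR1 and FGFR2 bind fibroblast growth factors together with heparan sulfate. Among the receptors they were those with the smallest p-values, and they differed in opposite directions. FGFR1 had 2 tested probes. That for NM_023110 was at 3.32 and 3.39 with the mimic and 3.55 and 3.59 with the control. That for NM_001174066 was at 1.18 and 1.13 with the mimic and 1.42 and 1.33 with the control. On both probes each mimic array was below each control array. The first was lower by a log2 difference of -0.22 ± 0.0592 (SE), which is 1.16-fold, with an interval from -0.39 to -0.05 and a limma adjusted p of 0.158. The second was lower by -0.22 ± 0.0657 (SE), which is 1.17-fold, with an interval from -0.41 to -0.03 and a limma adjusted p of 0.177. With a variance trend the adjusted p was 0.0546 and 0.104, so that neither passed. The remaining FGFR1 probe was above background on no array.

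FGFR2 had 2 tested probes, both annotated to NM_022970. One lies at chr10:123243217-123243276 on the minus strand of hg19. Its first 30 bases (chr10:123243247-123243276) are shown because it gave the smallest p of the receptor probes, in lower case throughout since no letter is singled out.
FGFR2 probe, first 30 bases: agagaccaacgttcaagcagttggtagaag
It was at 1.74 and 1.70 with the mimic and 1.39 and 1.30 with the control. The other, near chr10:123237830, was at 3.78 and 3.83 with the mimic and 3.54 and 3.46 with the control. Each mimic array was above each control array on both. The first was higher by 0.37 ± 0.0626 (SE), which is 1.29-fold, with an interval from 0.19 to 0.55 and a limma adjusted p of 0.105. The second was higher by 0.31 ± 0.0608 (SE), which is 1.24-fold, with an interval from 0.13 to 0.48 and a limma adjusted p of 0.121. Of all tested probes, 17.0% and 23.2% showed a larger change. The remaining FGFR2 probe was above background on no array, with processed signals from 7.99 to 16.9.

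The call of FGFR2 changed with the variance model and with the background correction. With a variance trend the adjusted p was 0.0327 and 0.0288, and with normexp it was 0.0494 and 0.0484. With normexp 2.06% of all tested probes passed as higher. Over all 13 alternatives the differences ran from 0.33 to 0.42 with adjusted p from 0.0327 to 0.364 for the first probe, and from 0.27 to 0.34 with adjusted p from 0.0288 to 0.373 for the second. The FGFR1 differences ran from -0.25 to -0.18 and from -0.27 to -0.17 over the same alternatives.

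**Figure D3:**
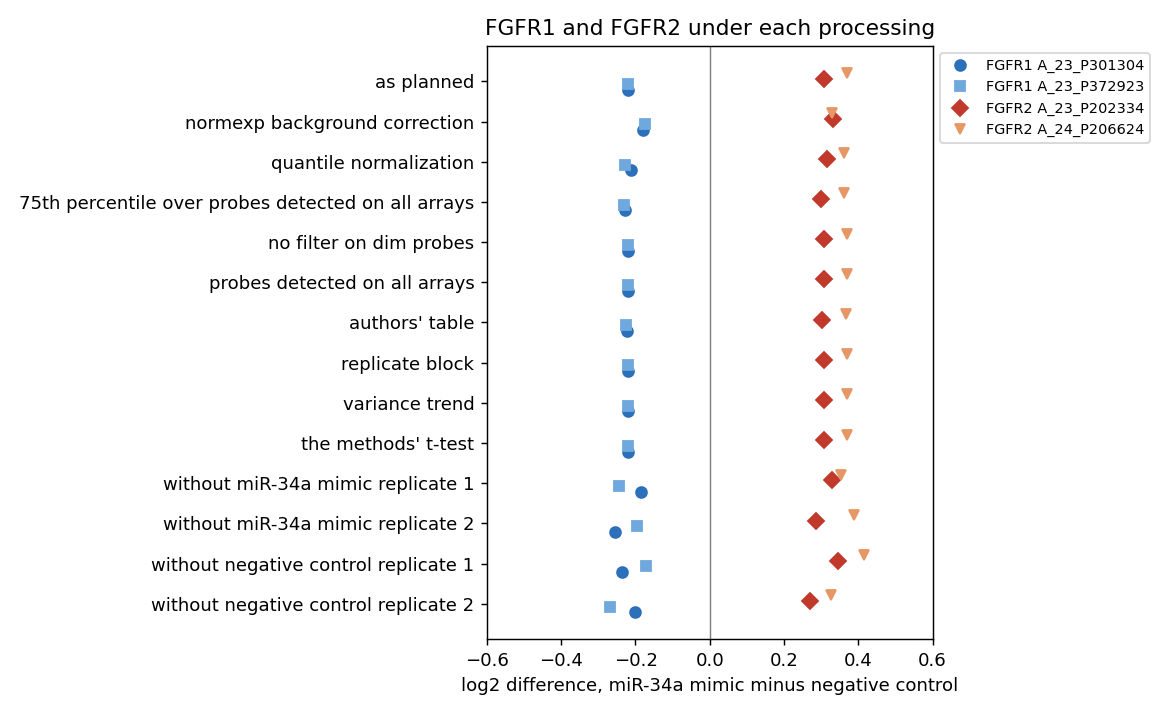
Log2 difference, mimic minus control, of the FGFR1 and FGFR2 probes as planned and under each of the 13 alternatives (rows), with 1 symbol per probe. Both FGFR1 symbols lie below 0 and both FGFR2 symbols above 0 in every row. Rows that change only the filter, the block or the variance repeat the planned differences.

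The opposite differences can be read within each array, where the scaling between arrays cancels. This recombines the same probe values and is no added support for them. The log2 signal of FGFR2 minus that of FGFR1, each the mean of its tested probes, was 0.51 on both mimic arrays. It was -0.02 and -0.07 on the control arrays. The means were 0.51 ± 0.0039 and -0.05 ± 0.035 (SD, n = 2), a shift of 0.56 or an unequal change of 1.47-fold, which does not say which receptor changed. The 2 genes were set against each other after their values were seen, and with 2 arrays a condition an exact permutation test cannot go below p = 0.333.

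**Figure D4:**
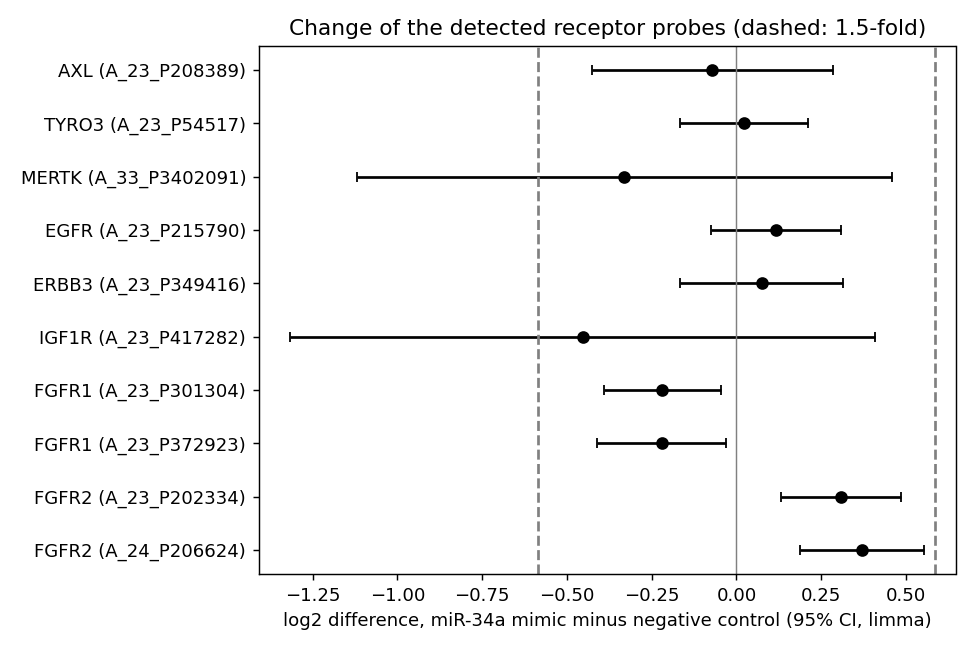
Log2 difference, mimic minus control, of the 10 tested receptor probes with the 95% interval from limma as bars, beside lines at a 1.5-fold change. Intervals of the FGFR1 probes lie below 0, those of the FGFR2 probes above 0, and the others include 0. The intervals of MERTK and IGF1R reach past the lower line.

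The genes around these receptors were taken from 4 lists and read on the brightest tested probe of each. Of 140 listed genes 83 were tested. In the mimic condition 4 were lower by more than 1.5-fold and 0 higher, against 4.85% and 1.96% of the 16201 genes tested. The 4 include FGF3, which passed the filter only through the control arrays. With every array required to exceed background, 3 were lower. The median log2 difference of the 83 genes was 0.02, that of all genes -0.01. In limma 0 of the 83 passed an adjusted p of 0.05, 7 were lower and 10 higher at an unadjusted p under 0.05, and with a variance trend 3 passed as lower and 3 as higher, against 3.88% and 4.2% of all genes. At the same unadjusted p, 11.9% of all genes were lower and 13% higher. By sign alone 38 of the 83 were lower, against 51.3% of all genes.

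Of the 33 ligands, 10 were tested. Of these, 2 (FGF2 and FGF3) were lower and 0 higher by more than 1.5-fold, against 4.85% and 1.96% of all genes tested. FGF3 passed the filter only through the control arrays, where its mean was higher, so that its direction was favored by the filter. HGF, the ligand of MET, was above background on no array with either of its 2 probes. The TAM ligand GAS6 was at -0.03 and -0.29 with the mimic and -0.66 and -0.72 with the control. Both mimic arrays were the higher ones, by a log2 difference of 0.53 ± 0.114 (SE) or 1.44-fold, with a limma adjusted p of 0.129, or 0.0654 with a variance trend. PROS1, which encodes protein S, differed by 0.07 on its brightest probe (limma adjusted p 0.587). Another PROS1 probe, above background on the mimic arrays only, measured 1.63-fold higher (limma adjusted p 0.124). Its control signals were not above background, so that this fold is uncertain. The probe passed the filter only through the mimic arrays, where it was higher, so that its p-value lends no weight to the direction. A further tested PROS1 probe differed by 0.18 with overlapping arrays (limma adjusted p 0.774).

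FGF2, a ligand of FGFR1, was at 1.11 and 0.66 with the mimic and 1.68 and 1.51 with the control. Its difference of -0.71 ± 0.186 (SE) had a limma adjusted p of 0.153, or 0.0608 with a variance trend, and a second FGF2 probe differed by -0.48 with an adjusted p of 0.0949, or 0.0367 with a variance trend. FGF3, above background on only 1 of the 2 mimic arrays, differed by -1.34 with overlapping arrays (limma adjusted p 0.337). HBEGF, an EGFR ligand, differed by -0.34 (adjusted p 0.191). IGF2, which binds IGF1R, was at 10.46 and 10.43 with the mimic and 10.56 and 10.55 with the control, a difference of -0.11 (adjusted p 0.292). IGF1 was above background on control replicate 2 alone with 1 of its 2 probes.

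Of 43 other receptor tyrosine kinases 25 were tested. Against 4.85% lower and 1.96% higher of all genes tested, 1 was past 1.5-fold. This was EPHA4, an ephrin receptor, at 1.98 on both mimic arrays and at 2.70 and 2.67 on the control arrays. It was lower by -0.71 ± 0.0526 (SE) on the log2 scale, 1.64-fold, with a limma adjusted p of 0.0949 and 0.00854 with a variance trend. ROR1, a WNT5A-binding receptor named here after its values were seen, differed by -0.37 and -0.52 on 2 of its probes, with limma adjusted p of 0.0953 and 0.104, or 0.0327 and 0.0392 with a variance trend, and by -0.07 on another (adjusted p 0.476, or 0.753 with the trend). MST1R, the close relative of MET, differed by 0.04 (adjusted p 0.798). ERBB2, the shared partner of EGFR and ERBB3, differed by 0.20 on its brightest probe (adjusted p 0.24) and by -1.01 with overlapping arrays on another (adjusted p 0.536).

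Of 31 adaptors and proximal effectors, 22 were tested and 0 passed 1.5-fold, with a median of 0.05. Over all genes tested, 4.85% were lower and 1.96% higher by that fold. Of 33 co-receptors, processing enzymes and negative regulators, 26 were tested. ST14, the protease matriptase that activates the HGF precursor, was the 1 gene past the fold. Its values were -0.30 and -1.19 with the mimic and 0.12 and -0.10 with the control, a difference of -0.76 ± 0.346 (SE) with a limma adjusted p of 0.284. Mimic replicate 2 was the lowest of its 4 arrays.

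**Figure D5:**
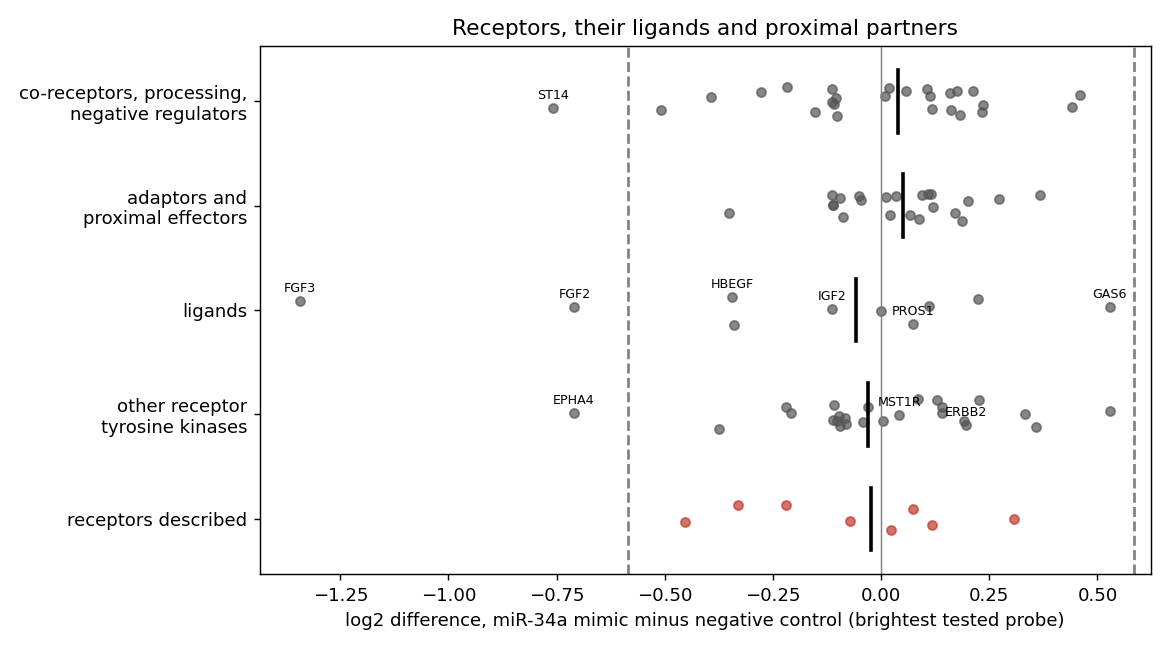
Log2 difference, mimic minus control, on the brightest tested probe of each gene, by list, with the median of each list as a bar and lines at a 1.5-fold change. The points beyond the lower line are EPHA4, FGF2, FGF3 and ST14, and no point lies beyond the upper line.

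The labelled cell type was checked against markers. All 5 genes of the gastrointestinal stromal tumor list (KIT, ANO1, ETV1, PRKCQ and CD34) were above background on all 4 arrays. Of the 4 epithelial markers, EPCAM was so and the other 3 were on no array, and 0 of the 3 endothelial markers were so on all arrays. Of the 3 smooth muscle markers, DES and SMTN were above background on all arrays, and MYH11 was so on no array. The share of probes above background was 43.2% and 41.9% on the mimic arrays and 43.2% and 45.3% on the control arrays. The control array with the highest share, replicate 2, is also the one apart in IGF1R, and the part of this in the IGF1R difference was not tested.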

How the data were processed

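RNA of 4 GIST-T1 samples (100 ng each) was read on one-color arrays. The authors deposited the spot intensity of each array from Agilent Feature Extraction (10.7 per the labels, 10.7.3.1 in the file headers). It was background-subtracted and detrended but not scaled between arrays. They also deposited a joint file of processed intensity. Its values were not identical, and the log2 difference of MERTK was -0.336 with it in place of -0.330. All arrays shared 1 slide and 1 scan. Control spots and 293 to 424 outlier spots an array were left out, and 0 spots were saturated.

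Spots of a probe were averaged on the log2 scale, and the 75th percentile of the array's probes was subtracted. A probe was tested (21474 were) if 1 or both conditions had it well above background on each of their arrays. Tests were two-sided in limma 3.58.1 (R 4.3.3, data.table, version 1.17.8) with Benjamini-Hochberg adjustment over all tested probes, a fold threshold of 1.5, and scripts tested on simulated data. Groups came from the labels. The receptors, gene lists and tests were chosen with earlier results of these data known. Named were all receptor probes, list genes past 1.5-fold on the brightest probe (at most 8 a list), and HGF, GAS6, PROS1, IGF1, IGF2, HBEGF, ERBB2 and MST1R. ROR1 was added after its values were seen. Symbols and hg19 coordinates came from the array annotation, and all 16 RefSeq accessions of the receptor probes had the same symbol in the RefSeq gene table. Exon positions were not analysed here. A list of blood cell markers is not reported here. Alternatives were normexp (offset 50), quantile normalization, the percentile over detected probes, no filter or one on all arrays, the authors' joint file, a replicate block, a variance trend, the methods' t-test, any probe of a gene, and leaving out each array.

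Same-numbered arrays did not deviate together (correlation -0.03), so that the numbers were not taken as pairs. The number of arrays limits the precision, and the SD of the log2 gap between replicates was 0.337 for the mimic and 0.29 for the control.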

Additional observations from a re-analysis of the deposited data

How the results depend on the processing

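Receptor probes past 1.5-fold stayed at 0 lower and 0 higher except as follows. Without a filter on dim probes 2 were higher, and leaving out 1 array gave 0 to 1 lower (MERTK without mimic replicate 2, IGF1R without control replicate 1). The 4 list genes that were lower became 2 with normexp, 14 without a filter, 6 with any tested probe, and 3 to 6 with an array left out. The 0 that were higher became 1 with quantile normalization, 6 without a filter, 3 with any tested probe and 0 to 2 with an array left out. With normexp EGFR turned to -0.0092 and ERBB3 to -0.037. With an array left out, the log2 difference ran from -0.21 to 0.067 for AXL, -0.019 to 0.064 for TYRO3, -0.69 to 0.026 for MERTK and -0.012 to 0.16 for ERBB3, and the spread then came from the other condition alone. IGF1R, FGFR1 and FGFR2 kept their sign under all 13 alternatives. Of these, the changes of filter, the replicate block, the variance trend and the methods' t-test leave each difference as planned. Only the other alternatives could change a sign. With the replicate number as a block, the counts past 1.5-fold stayed at 0 for the receptors, and 2 of their probes had an unadjusted p under 0.05 in place of 4, against 19.5% of all tested probes in place of 24.3%. No receptor call changed, and the lowest adjusted p over the array was 0.222.

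Over all probes, 69.5% of those past 1.5-fold were lower, and 52.3% after quantile normalization. These were 1034 lower and 453 higher, against 184 and 68 with normexp, 6811 and 2069 without a filter, and 517 and 287 when every array had to exceed background. After adjustment limma called 0, against 434 lower and 443 higher with normexp and 756 and 803 with a variance trend. The cause of these shifts was not tested. Signals of MET, INSR and the other receptor probes that were not tested are too close to background to show a difference.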
